A study of Homo sapiens with 9 samples.

Results

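The 248 protein-coding genes of chromosome 19 whose symbol is ZNF followed by a number are described here, out of 60683 gene identifiers counted in each library. They were taken from the GENCODE 29 annotation by symbol, gene type and chromosome alone, and 1 further gene of that description was left out by the rule that defined the set. RNA was measured by sequencing in 9 libraries of HEK293T, an established line of human embryonic kidney cells with the SV40 large T antigen. Parental HEK293T cells (3 replicates) had received no transgene. Clone 37 and clone 15 (3 replicates each) each descend from 1 sorted cell after piggyBac transposition of a pair of reporters into the genome. One, ATG-(CAG)60-Myc-NLuc, has 60 CAG units ahead of NanoLuc luciferase, and the other, ATG-(CAG)0-Myc-FLuc, has 0 ahead of firefly luciferase. Clone 37 was picked for high and clone 15 for low expression of both, and the comparisons below set each clone against parental cells and the clones against each other. Each clone is a single line, so a difference between clones cannot be told apart from what a single sorted cell carried before transposition. The labels do not say whether replicates came from separate cultures, so p values measure the spread between these libraries, which may be technical.

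KRAB zinc finger proteins are a large family of sequence-specific repressors. An array of C2H2 fingers reads DNA, and the KRAB domain recruits TRIM28 (KAP1), which brings SETDB1, HP1 proteins and the histone deacetylases of the NuRD complex to the bound site. Many of these proteins bind transposable elements, and their genes arose by repeated local duplication, which left most of them in clusters on chromosome 19. The label was checked on the annotated coding sequences. A KRAB A box, the part of the domain that contacts TRIM28, was found by a fixed amino acid pattern in 175 of the 248 genes, and in 192 when the box was also allowed to end in leucine. The genes encoded a median of 12 C2H2 fingers, from 0 to 39. For 16 genes a KRAB box is known to be lacking from general knowledge, so not every gene in the set is of KRAB type. On the forward strand lay 132 of the genes and on the reverse strand 116.

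Gene counts summed to 10334090 to 38093340 per library, and the zinc finger genes held 40722 to 127793 of them. Clone 15 was sequenced with 100-base reads and both other groups with 75-base reads, so read length cannot be told apart from clone 15 in its comparisons. Reads mapping to several places were 4.59% to 5.98% of read pairs in clone 15, 10.4% to 11.7% in clone 37 and 11.9% to 14.0% in parental cells. Since duplicated genes lose such reads, the share of 75-base words of each longest transcript that also occur in another gene was computed. Its median was 1.01%, and 50 genes had a share of 10% or more. No pair of replicates agreed within sampling noise, and parental replicate 2 and clone 15 replicate 2 stood apart from the other libraries of their groups. The chi-square per gene was 11.4 and 11.6 for the former against replicates 1 and 3, and 1.99 between those 2. For the latter it was 9.97 and 8.19, and 4.53 between replicates 1 and 3. The summed level of 11 markers of HEK293T cells was 1513 to 1829 CPM (the count scaled to the library's gene total) in parental cells, 933 to 1002 in clone 37 and 4271 to 4433 in clone 15, with none at 0. Most of that difference lay in NEFM (means of 559, 137 and 2728 CPM in the same order) and NEFL (235, 60.7 and 716). The 4 haematopoietic markers summed to at most 1.92 CPM in any library, with CD3E and HBB at 0 in every group. Endothelial and hepatocyte markers (2 each) summed to at most 0.387. The 4 fibroblast markers, of which DCN was at 0 in 3 libraries, summed to 35.6 to 38.1 CPM in parental cells, 19.2 to 21.3 in clone 37 and 49.3 to 112 in clone 15. The part of these differences in the results below was not tested.

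Most chromosome 19 zinc finger genes were expressed at low to moderate levels in HEK293T cells. In parental cells 199 of the 248 had a mean of at least 1 CPM and 124 a mean of at least 10 CPM, and the median gene stood at 10.0 CPM. The highest stood at 183 CPM. No count was recorded in any library for 4 genes. In all parental libraries together 20 genes were at 0 counts, against 13 in clone 37 and 11 in the more deeply sequenced clone 15. After the filter on low counts, 208 genes were tested in at least 1 comparison and 197 in all 3. A gene could pass that filter through a single group, and ZNF93, ZNF257, ZNF878, ZNF229 and ZNF610 were tested in clone 37 but not in clone 15 against parental cells.

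Clone 37 had more zinc finger RNA in total than parental cells and clone 15 had less. The summed level of the 248 genes was 3767, 3492 and 3807 CPM in the parental libraries, 4414, 4471 and 4473 in clone 37, and 3355, 3285 and 3373 in clone 15. The 3 groups did not overlap. The means were 3689 ± 172 CPM in parental cells, 4453 ± 33.2 in clone 37, and 3338 ± 46.5 (SD, n = 3 each) in clone 15, that is, 1.21 times parental in clone 37, 0.905 times parental in clone 15 and 1.33 times clone 15 in clone 37. By exact permutation, two-sided, p was 0.1 in each of the 3 comparisons, which is as low as 3 libraries against 3 can go. In bulk RNA, a lower level in every cell and a smaller share of expressing cells cannot be told apart.

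Gene by gene, by the quasi-likelihood test of edgeR, with p values adjusted over all genes (Benjamini-Hochberg) and called under 0.05, 73 of 205 tested zinc finger genes were called higher in clone 37 than in parental cells (35.6%, against 26.7% of all tested genes) and 35 lower (17.1%, against 27.3%). The median log2 fold change was 0.14 (0.09 without parental replicate 2), and 0.02 over all tested genes. In clone 15, which shares the parental controls with that comparison, 18 of 202 were called higher than in parental cells (8.91%, against 25.1% of all tested genes) and 77 lower (38.1%, against 26.2%), with a median of -0.18 against 0.02. Between the clones, 113 of 205 were called higher in clone 37 (55.1%, against 28.7%) and 31 lower (15.1%, against 29.0%), with a median of 0.33 against -0.0015 over all genes. At least 2-fold changes were called for 20 genes higher and 7 lower in clone 37 against parental (3.38% and 5.62% of all tested genes), 1 higher and 13 lower in clone 15 (5.2% and 4.89%), and 33 higher and 5 lower in clone 37 against clone 15 (4.92% and 6.99%). ZNF93, ZNF257, ZNF878, ZNF229 and ZNF610 passed the filter against parental only through clone 37 and are among both the 73 and the 20.

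The rest of the chromosome had other splits. Of the other protein-coding genes of chromosome 19, 226 of 734 tested were called higher and 214 lower in clone 37 (median 0.02), 308 of 751 higher and 98 lower in clone 15 (median 0.21), and 162 of 752 higher and 319 lower in clone 37 against clone 15 (median -0.16). ZNF genes on the other chromosomes lay between, with 82 higher and 55 lower of 236 in clone 37, 53 and 78 of 235 in clone 15, and 105 and 49 of 237 between the clones. When each gene was tested against the 50 nearest tested protein-coding genes of chromosome 19 without a ZNF symbol (zinc finger genes under other symbols, such as ZFP30, are among them), the split became 90 higher and 20 lower in clone 37, 4 and 110 in clone 15, and 150 and 9 between the clones. In that fit the shares were 43.9% and 9.76% in clone 37, 1.98% and 54.5% in clone 15, and 73.2% and 4.39% between the clones. Over all tested genes they were 21.5% and 21.5%, 20.8% and 21.5%, and 26.3% and 24.2%. The clone 15 split also moved when trends in base composition and length were removed together. Tested zinc finger transcripts had a median GC content of 42.2%, against 48.0% over all tested genes and 60.2% over the other chromosome 19 genes, and with both trends removed per library clone 15 had 36 genes called higher (17.8%, against 26.4% of all tested genes in that fit) and 56 lower (27.7%, against 23.7%), with a median of -0.07 against 0.04. The share of lowered genes in clone 15 was then near that over all genes. The splits in clone 37 (81 and 30) and between the clones (100 and 29) then differed less from those above. Their shares were 39.5% and 14.6% in clone 37 (29.4% and 24.6% of all tested genes in that fit). Between the clones they were 48.8% and 14.1% (29.5% and 28.7% of all tested genes).

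**Figure D1:**
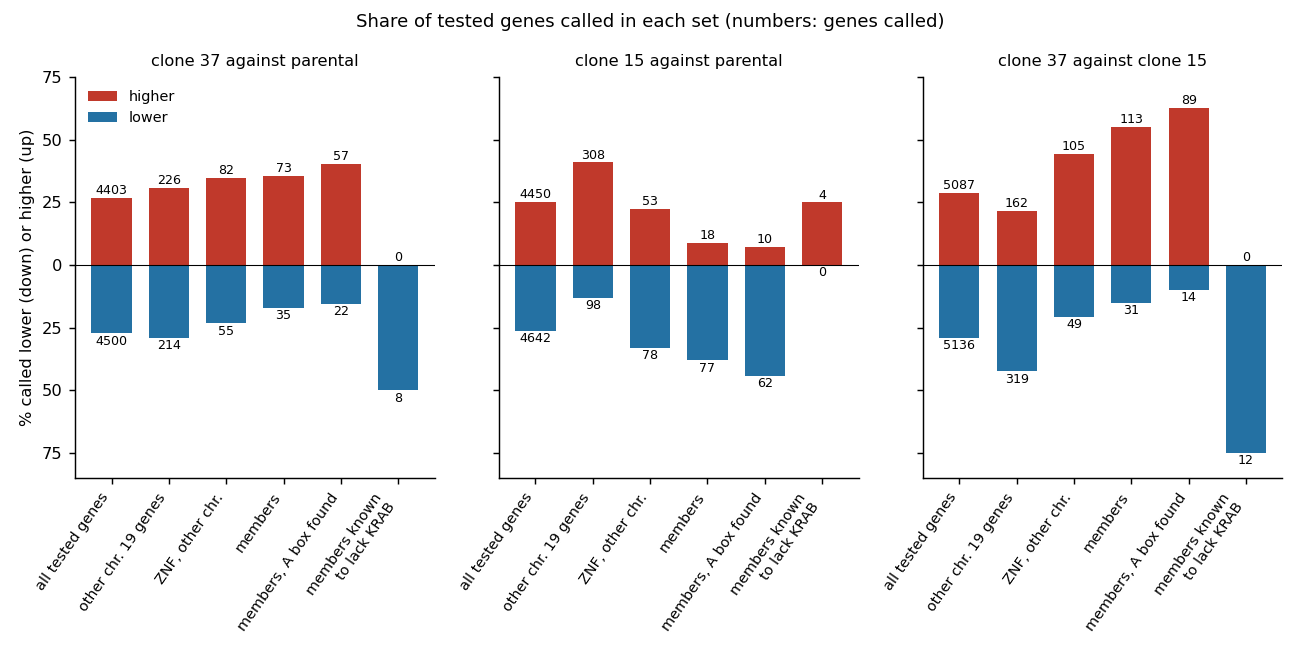
Percent of tested genes called higher (upward bars) or lower (downward bars) in each comparison, for all tested genes, other chromosome 19 genes, ZNF genes of other chromosomes, the chromosome 19 zinc finger genes and 2 groups of them; the number of genes called stands at each bar. In clone 37 against clone 15, 113 zinc finger genes are higher and 31 lower, whereas 162 of the other chromosome 19 genes are higher and 319 lower.

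Genes with a KRAB A box had the same directions with larger medians. The shares over all tested genes, upward and downward, were 26.7% and 27.3% for clone 37, 25.1% and 26.2% for clone 15, and 28.7% and 29.0% between the clones. Of the A box genes, 57 of 141 tested rose (40.4%) and 22 fell (15.6%) in clone 37 (median 0.18), 10 of 140 rose (7.14%) and 62 fell (44.3%) in clone 15 (median -0.26), and 89 of 142 were higher (62.7%) and 14 lower (9.86%) in clone 37 than in clone 15 (median 0.39). Genes without the pattern had 16 higher (25%) and 13 lower (20.3%) of 64, 8 (12.9%) and 15 (24.2%) of 62, and 24 (38.1%) and 17 (27%) of 63, with medians of 0.01, -0.09 and 0.17. A box that may end in leucine is present in 17 of the genes without the strict pattern, all of them in cluster 7. With those moved over, the genes with a box had 61 higher and 23 lower of 158, 10 and 67 of 156, and 97 and 14 of 158, and the others 12 and 12 of 47, 8 and 10 of 46, and 16 and 17 of 47. The 16 genes known to lack a KRAB box had another split. None was called higher and 8 were called lower (50%) in clone 37 (median -0.32), 4 were called higher (25%, near the share over all genes) and none lower in clone 15 (median 0.11), and none was higher and 12 were lower (75%) in clone 37 against clone 15 (median -0.38). Their transcripts had a median GC content of 64.9%, against 41.8% for the genes with an A box, and the part of that difference in the result was not tested. Among genes with under 10% of shared words the counts were 60 higher and 27 lower of 163 in clone 37, 14 and 66 of 160 in clone 15, and 93 and 22 of 164 between the clones.

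Split wherever neighbouring members started more than 1 Mb apart, the genes formed 9 clusters of at least 5 members, numbered here from the end of the short arm, and 11 genes lay outside them. In clone 37 the 5 clusters that come first along the chromosome held nearly all their calls among raised genes. Clusters 1 to 5 had 41 called higher and 1 called lower of 63 tested (65.1% and 1.59%, against 26.7% and 27.3% of all tested genes). ZNF878, ZNF93 and ZNF257, among the 41, passed the filter on low counts only through clone 37. Clusters 8 and 9 together had 17 called higher and 25 lower of 84 (20.2% and 29.8%), both shares near those over all genes. Clusters 6 (10 and 2 of 25) and 7 (4 and 2 of 23) are in neither group. In clone 15, against 25.1% upward and 26.2% downward over all tested genes, the calls higher and lower were 0 and 13 of 22 tested in cluster 4, 0 and 17 of 25 in cluster 6, 1 and 12 of 31 in cluster 8, and 7 and 19 of 52 in cluster 9. They were 2 and 3 of 13 in cluster 2, 1 and 3 of 18 in cluster 3, and 1 and 5 of 22 in cluster 7, where the lowered genes were no larger a share than over all genes. Clusters 1 and 5, with few tested genes, had 0 and 1 of 4 and 2 and 3 of 5.

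**Figure D2:**
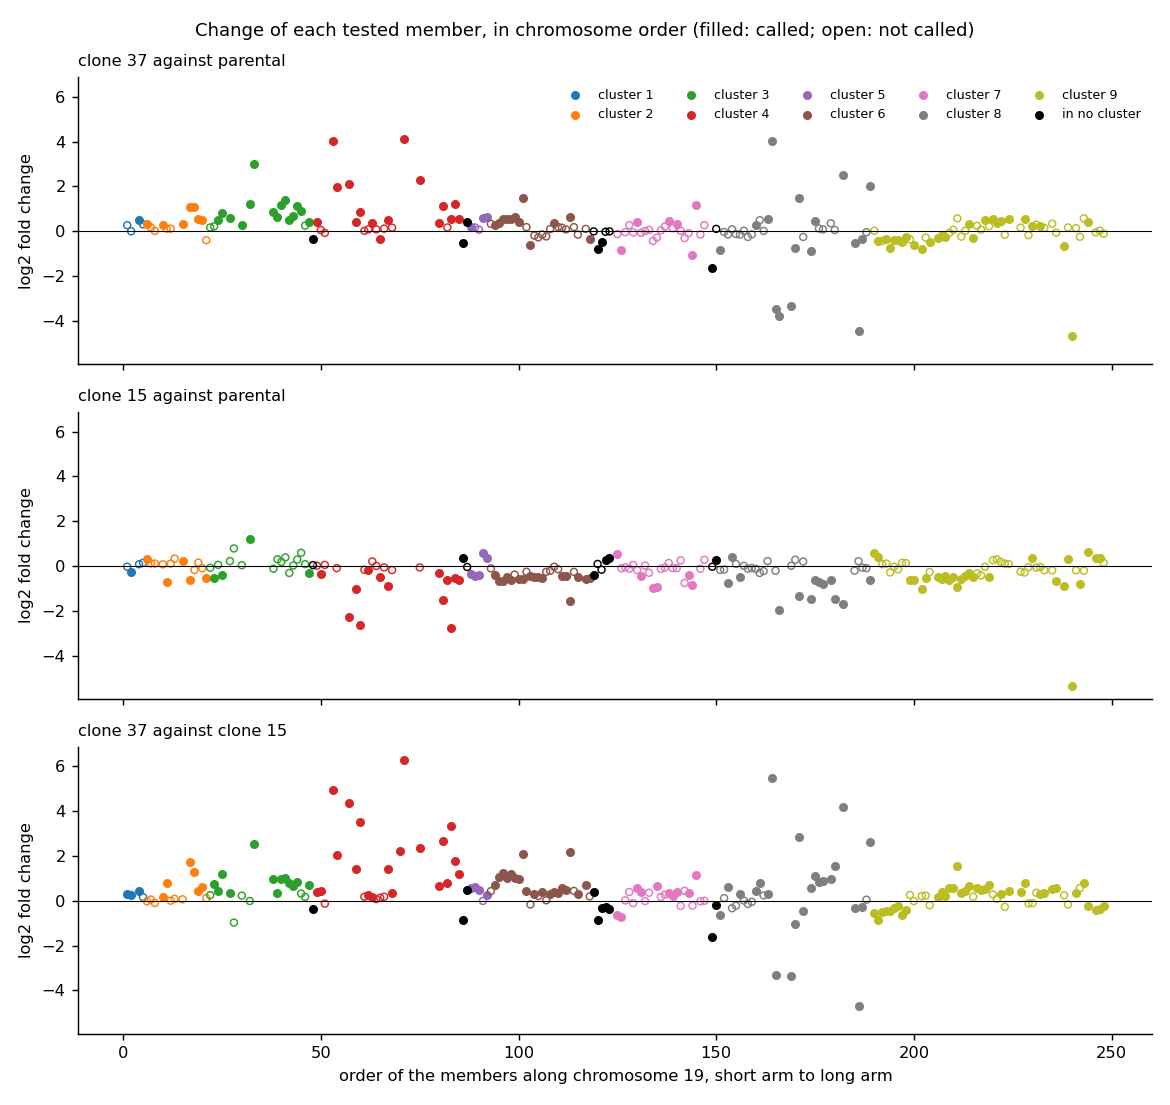
Log2 fold change of each tested zinc finger gene against its order along chromosome 19, in the 3 comparisons, coloured by cluster; filled points were called and open points were not. Cluster 4 reaches 4.12 in clone 37 and -2.79 in clone 15, and cluster 8 holds changes from -4.47 to 4.02 in clone 37.

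The summed levels of the clusters differed too. Cluster 2 (16 genes, chr19:7069444-9793180) summed to 521 ± 20.7 CPM in parental cells, 855 ± 3.02 in clone 37, and 514 ± 15.7 in clone 15 (SD over 3 libraries, here and in the next sentences). ZNF121 alone accounted for 214 of the 334 CPM by which cluster 2 was higher in clone 37, and without it the cluster summed to 338 ± 9.44, 458 ± 2.91 and 349 ± 13.0 CPM in the same order. Cluster 3 (26 genes, chr19:11483427-12640098) summed to 167 ± 10.5, 247 ± 2.50 and 163 ± 9.62 CPM, and cluster 4 (37 genes, chr19:19668796-24129961) to 438 ± 31.5, 602 ± 17.8 and 356 ± 8.83. Cluster 6 (26 genes, chr19:36182060-37817300) summed to 535 ± 4.09, 682 ± 11 and 396 ± 19.6 CPM. Clusters 1 and 5, with 5 genes each, summed to 48.5 ± 3.48, 57.6 ± 2.48 and 47.1 ± 1.07 CPM, and to 85.5 ± 4.24, 105 ± 2.59 and 77.4 ± 1.24. In clusters 4, 5 and 6 the 3 groups did not overlap, and in clusters 1, 2 and 3 clone 37 stood above both other groups. The late clusters differed less between clone 37 and parental cells. Cluster 7 (24 genes, chr19:43525497-45076588) summed to 265 ± 12.2, 273 ± 5.33 and 260 ± 2.88 CPM, cluster 8 (39 genes, chr19:51571298-53496255) to 381 ± 13.3, 387 ± 9.15 and 322 ± 16.9, and cluster 9 (59 genes, chr19:55476332-58481230) to 955 ± 66.5, 941 ± 14.5 and 888 ± 25.6. The nearest other genes shifted along the chromosome too. Their median log2 fold change in clone 37, taken as the median over the tested zinc finger genes of each cluster, was 0.22 at cluster 4, -0.06 at cluster 6, -0.37 at cluster 7, -0.28 at cluster 8 and -0.20 at cluster 9, and in clone 15 it was between 0.13 and 0.28 at all 9 clusters. Many of these 50 lie outside the cluster spans. Within their spans, clusters 1, 4 and 5 had 0 tested protein-coding genes without a ZNF symbol, and clusters 3 and 8 had 2 each. In cluster 6, none of 4 such genes rose and 3 fell in clone 15 (median -0.70, against 0.15 for the nearest 50). In cluster 3, 2 of 2 rose in clone 37 (median 0.41) and in clone 15 (median 0.59).

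**Figure D3:**
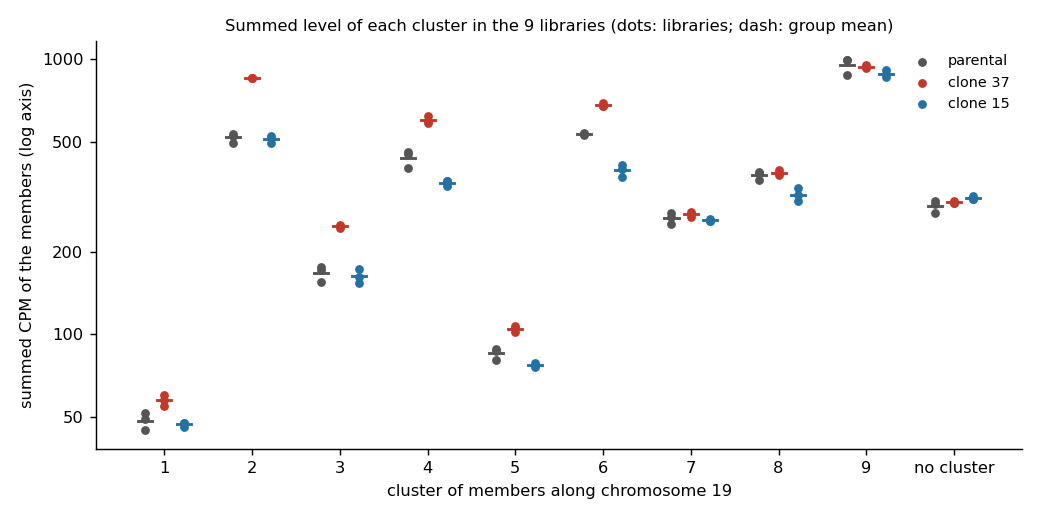
Summed CPM of the zinc finger genes of each cluster (log axis) in the 9 libraries, one dot per library and a dash at each group mean. Cluster 4 has means of 438 CPM in parental cells, 602 in clone 37 and 356 in clone 15, and the 3 groups do not overlap there.

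In cluster 4, 24 genes were tested in clone 37, 15 rose and 1 fell (median 0.41), 22 were tested in clone 15, none rose and 13 fell (median -0.35), and 20 of 25 were higher and none lower in clone 37 against clone 15 (median 1.20). ZNF93 and ZNF257 passed the filter on low counts only through their level in clone 37, and without this pair the median in clone 37 against parental was 0.39. Between the clones the pair also enters the median of 1.20, and without it the middle gene is ZNF675, at 0.78. The cluster lies on the short arm next to the centromere and holds the ZNF91 subfamily, a primate expansion that includes repressors of retrotransposons. ZNF257 and ZNF93 were nearly silent in parental cells and clone 15 and expressed in clone 37. ZNF257 (ENSG00000197134, chr19:22052452-22091480, forward strand) stood at 0.278, 0.288 and 0.306 CPM in parental cells, 5.02, 6.48 and 4.53 in clone 37 and 0.0525, 0.122 and 0 in the clone 15 libraries. No group overlapped another, and the log2 fold change of clone 37 was 4.12 against parental (SE 0.32, edgeR adjusted p 1.06e-08) and 6.30 against clone 15 (SE 0.40, adjusted p 1.91e-13, or 6.96 as a log2 fold change without clone 15 replicate 2). ZNF93 (ENSG00000184635, chr19:19900913-19963464, forward strand), a repressor of LINE-1 elements, had 0.370, 0.360 and 0.383 CPM in parental cells, 6.94, 6.68 and 5.67 in clone 37 and 0.368, 0.0812 and 0.0536 in the clone 15 libraries. Clone 37 stood above every other library, with log2 fold changes of 4.05 (SE 0.28, adjusted p 2.37e-09) and 4.93 (SE 0.34, adjusted p 2.17e-12, or 6.38 as a log2 fold change without clone 15 replicate 1).

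ZNF737, ZNF85, ZNF681 and ZNF91, also of cluster 4, were called higher in clone 37 and lower in clone 15 than in parental cells, and in each of them the groups did not overlap. ZNF737 (chr19:20535825-20565809, reverse strand) had 3.33, 3.67 and 3.83 CPM in parental cells, 15.7, 16.3 and 15.9 in clone 37 and 0.840, 0.569 and 0.858 in the clone 15 libraries. In log2 terms it rose by 2.11 (SE 0.14, edgeR adjusted p 9.85e-10) in clone 37 and fell by 2.28 (SE 0.28, adjusted p 2.72e-07) in clone 15. ZNF85 (chr19:20923222-20950697) had 8.23, 6.83 and 8.11 CPM in parental cells, 12.9, 14.6 and 15.5 in clone 37 and 1.42, 1.18 and 1.13 in the clone 15 libraries. It thus rose by 0.87 (SE 0.13) in clone 37 and fell by 2.63 (SE 0.21) in clone 15 on the log2 scale. ZNF681 (chr19:23739195-23758891, reverse strand) had 8.79, 9.42 and 9.72 CPM in parental cells, 15.2, 13.8 and 13.1 in clone 37 and 1.37, 1.18 and 1.61 in the clone 15 libraries, with log2 fold changes of 0.56 (SE 0.12) and -2.79 (SE 0.20). ZNF91 (ENSG00000167232, chr19:23304991-23395560, reverse strand), a 32-finger repressor of SVA retrotransposons, followed the same order. Its levels were 32.2, 28.5 and 35.3 CPM in parental cells, 70.9, 71.8 and 73.0 in clone 37 and 12, 9.87 and 11.6 in the clone 15 libraries. Its log2 fold change was 1.14 in clone 37 (SE 0.08, adjusted p 1.14e-09), -1.54 in clone 15 (SE 0.11, adjusted p 4.26e-11) and 2.68 between the clones (SE 0.08, adjusted p 1.36e-20).

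A further 3 named members of cluster 4 had more reads in clone 37 than in parental cells. ZNF492 (chr19:22634324-22667670) stood at 4.90, 2.95 and 4.21 CPM in parental cells, 17.7, 19.1 and 22.6 in clone 37 and 4.07, 3.29 and 4.29 in the clone 15 libraries. It rose by 2.30 in clone 37 (SE 0.16, edgeR adjusted p 3.02e-09), its change in clone 15 was -0.06 (adjusted p 0.821), and 24.8% of its words are shared with other genes, so part of its counts is uncertain. ZNF208 had 28 counts in the 3 clone 37 libraries, 1 in parental cells and 14 in clone 15. Pooled per group, the ratio of clone 37 over parental was 31.4, and its 95% exact counting interval ran from 5.20 to 1286. ZNF98 had 9, 5 and 4 counts in clone 37, 0 in every parental library and 2 in clone 15. Set against the floor (3 counts in each parental library), its level in clone 37 was at least 2.25-fold higher, and 45.1% of its words are shared. Counting intervals and floors cover counting error only.

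**Figure D4:**
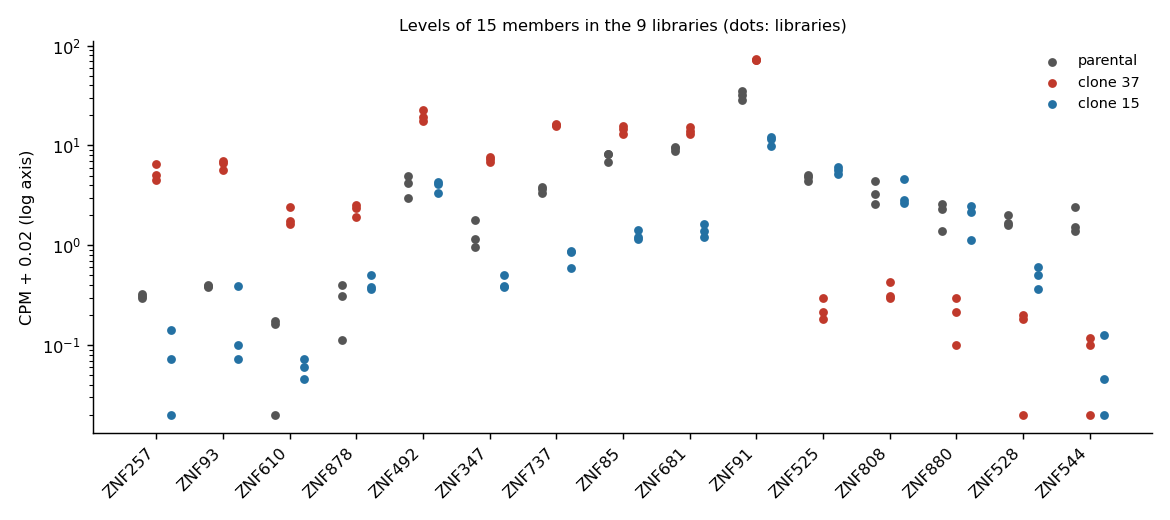
CPM plus 0.02 (log axis) of 15 zinc finger genes in each of the 9 libraries, one dot per library. The 10 genes on the left are higher in clone 37 than in parental cells, up to 71.9 CPM on average for ZNF91, and the 5 on the right are lower there, such as ZNF525 at 0.210 against 4.75 CPM.

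Promoter windows of 4 genes of cluster 4 are shown because the levels of these genes differ widely between the clones. Each runs from 250 bases before to 50 after the annotated start (RefSeq, GRCh38.p14), and capitals mark every copy of the 9-base run TCCAATCAG, which holds a CCAAT box, the site bound by the factor NF-Y. The windows are chr19:22052234-22052533 (forward strand) for ZNF257, chr19:19900696-19900995 (forward) for ZNF93, chr19:20565732-20566031 (reverse) for ZNF737 and chr19:23758842-23759141 (reverse) for ZNF681.
ZNF257: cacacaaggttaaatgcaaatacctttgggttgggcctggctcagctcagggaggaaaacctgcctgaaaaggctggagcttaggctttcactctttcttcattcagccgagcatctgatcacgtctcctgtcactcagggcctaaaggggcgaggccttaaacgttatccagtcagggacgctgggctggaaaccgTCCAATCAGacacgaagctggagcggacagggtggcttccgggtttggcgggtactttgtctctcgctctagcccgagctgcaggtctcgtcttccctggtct
ZNF93: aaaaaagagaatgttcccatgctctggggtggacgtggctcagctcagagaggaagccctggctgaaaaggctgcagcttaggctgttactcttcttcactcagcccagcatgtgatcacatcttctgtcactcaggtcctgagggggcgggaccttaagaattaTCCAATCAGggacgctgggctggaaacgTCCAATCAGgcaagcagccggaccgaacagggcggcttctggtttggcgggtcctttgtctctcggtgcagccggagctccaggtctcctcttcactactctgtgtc
ZNF737: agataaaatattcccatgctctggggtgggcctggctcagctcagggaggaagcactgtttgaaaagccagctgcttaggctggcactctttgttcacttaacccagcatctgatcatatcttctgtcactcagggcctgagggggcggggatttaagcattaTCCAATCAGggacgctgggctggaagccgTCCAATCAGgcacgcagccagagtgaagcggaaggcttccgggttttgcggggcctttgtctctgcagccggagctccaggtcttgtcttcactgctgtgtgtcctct
ZNF681: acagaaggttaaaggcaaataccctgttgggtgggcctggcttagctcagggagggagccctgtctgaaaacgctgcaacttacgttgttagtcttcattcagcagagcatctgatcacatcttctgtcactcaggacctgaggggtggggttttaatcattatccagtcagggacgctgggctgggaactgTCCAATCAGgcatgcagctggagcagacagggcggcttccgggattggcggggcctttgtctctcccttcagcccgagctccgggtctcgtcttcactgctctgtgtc
Aligned pairwise end to end, these windows were identical at 79.0% to 84.3% of their 300 positions. The run was picked from the ZNF93 window with the expression values known and searched on both strands. It was found in 53 of 216 zinc finger windows (24.5%, 17 with several copies), against 298 of all 35116 windows (0.849%). All 29 windows of cluster 4 held it, as did 20 of 25 in cluster 3, 4 of 5 in cluster 1 and none in the other clusters or outside them. CCAAT alone occurred in 53.7% of zinc finger windows and 34.6% of all windows.

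Genes whose window held the run rose or did not pass the test in clone 37. Of 39 tested there, 28 were called higher (71.8%, against 26.7% of all tested genes) and none lower (against 27.3%; median 0.52, from -0.0029 to 4.12). In clone 15, 1 of 37 tested was called higher (2.7%, against 25.1%) and 16 lower (43.2%, against 26.2%; median -0.12). Between the clones 32 of 41 were called higher in clone 37 (78.0%, against 28.7%) and none lower (against 29.0%; median 0.73). The 28 called higher against parental include ZNF93, from which the run was picked, and ZNF257, ZNF737 and ZNF681, shown for their levels. ZNF93, ZNF257 and ZNF878, also among the 28, passed the filter on low counts only through clone 37. ZNF738, the 1 gene of cluster 4 called lower there (-0.36), has no window and is not counted. These shares are thus no independent evidence of a direction. The zinc finger genes with a window that lacks the run had 41 called higher and 31 lower of 145 in clone 37 (median 0.07), 15 and 53 of 144 in clone 15 (median -0.19), and 72 and 28 of 143 between the clones (median 0.30). Genes also rose without the run. No window of cluster 2 held it, and 7 of its 11 tested genes with a window rose in clone 37 and none fell (median 0.31). In cluster 3, 3 of the 4 tested genes whose window lacks it rose (ZNF442 by 1.40, ZNF44 by 0.66 and ZNF799 by 0.51, the last with 19.02% of its words shared), and ZNF653 had 0.17, which was not called. These 4 were singled out after their values were seen. In cluster 4, where every window holds the run, run and position cannot be told apart. A match is a description of the letters, not evidence of binding.

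**Figure D5:**
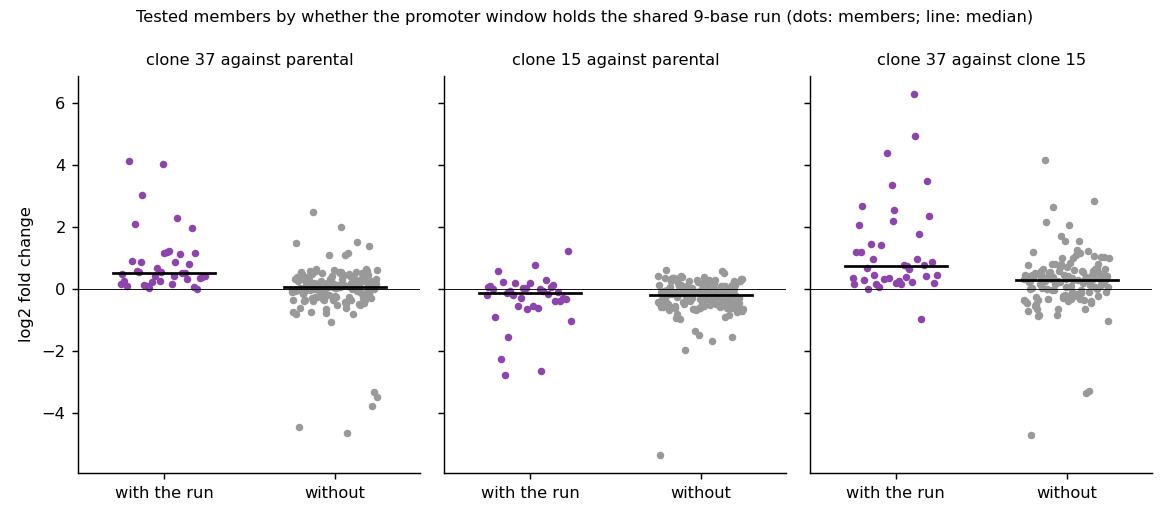
Log2 fold change of tested zinc finger genes whose promoter window holds the shared 9-base run or does not, in the 3 comparisons; each dot is a gene and the line is the median. In clone 37 against parental the medians are 0.52 with the run and 0.07 without it.

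Clusters 2 and 3, on the short arm, held raised and no lowered genes in clone 37, while cluster 1, also there, had 1 call among 4 tested. In clone 15 clusters 1 and 3 held few calls, and cluster 2 had 2 higher and 3 lower of 13. In cluster 3, 15 of 18 tested genes rose and none fell in clone 37 (median 0.66, against 0.12 for the nearest other genes and 0.41 for the 2 within its span). In clone 15, 1 rose and 3 fell of 18 (median 0.07). ZNF878 (chr19:12043805-12052939, reverse strand) had 0.0925, 0.288 and 0.383 CPM in parental cells, 1.92, 2.52 and 2.35 in clone 37 and 0.341, 0.365 and 0.482 in the clone 15 libraries. It rose by 3.02 in clone 37 (SE 0.41, edgeR adjusted p 7.07e-06). Among its words 15.5% are shared. ZNF433 (chr19:12014732-12035741, reverse strand) was higher in both clones, at 2.04, 1.73 and 2.07 CPM in parental cells, 4.20, 5.42 and 4.21 in clone 37 and 4.83, 4.39 and 4.66 in the clone 15 libraries. Its log2 fold changes were 1.22 (SE 0.22, adjusted p 0.000165) and 1.23 (SE 0.22, adjusted p 4.66e-05), and the clones did not differ by the test (-0.01, SE 0.17, adjusted p 0.964). ZNF625 had 21 counts in clone 37, 7 in parental cells and 1 in clone 15, too few for the test, and 77.1% of its words are shared.

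In cluster 2 the largest change in clone 37 against parental was that of ZNF121 (ENSG00000197961, chr19:9560353-9584533, reverse strand), a 9-finger gene in which no A box was found. Its levels were 196, 165 and 188 CPM in parental cells, 394, 404 and 393 in clone 37 and 172, 159 and 163 in the clone 15 libraries. Clone 37 thus lay above all other libraries, with a log2 fold change of 1.09 (SE 0.06, edgeR adjusted p 2.52e-10) against parental. The change in clone 15 was -0.18 (SE 0.08, adjusted p 0.0638), and it passed the threshold without parental replicate 2 (-0.23, adjusted p 0.00642). Over cluster 2, 7 of 12 tested genes rose and none fell in clone 37, and 2 rose and 3 fell of 13 in clone 15. Cluster 1 (5 genes, chr19:2819874-2944971) had 1 call in clone 37, for ZNF57. It stood at 8.33, 9.13 and 8.80 CPM in parental cells, 13.6, 12.4 and 12.5 in clone 37 and 8.48, 8.97 and 11.2 in the clone 15 libraries. Its log2 fold change of 0.52 (adjusted p 0.00152) was not called on counts of both strands (0.27, adjusted p 0.588) nor against its neighbours (0.29, adjusted p 0.0655).

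In cluster 6, most calls were higher in clone 37 and lower in clone 15, relative to parental cells. Of 25 tested genes 10 rose and 2 fell in clone 37 (median 0.18), none rose and 17 fell in clone 15 (median -0.48), and 19 were higher and none lower in clone 37 against clone 15 (median 0.44). ZNF146 (chr19:36214602-36238774), which encodes little more than its 10 fingers, had the highest level per transcript length of all members in parental cells, 48.3 CPM per kb. Its levels were 174, 197 and 177 CPM in parental cells, 222, 220 and 231 in clone 37 and 151, 122 and 145 in the clone 15 libraries. The groups did not overlap, and the log2 fold changes were 0.27 (SE 0.06, edgeR adjusted p 0.00172, or 0.0525 without clone 37 replicate 3) and -0.42 (SE 0.09, adjusted p 0.000503). ZNF793 (chr19:37506939-37548762) had 8.88, 5.90 and 8.65 CPM in parental cells, 10.7, 13.1 and 12.5 in clone 37 and 2.7, 2.68 and 2.63 in the clone 15 libraries. It rose by 0.61 (SE 0.15) in clone 37 and fell by 1.56 (SE 0.19) in clone 15. ZNF382 (chr19:36604817-36634113) had 15.7, 17.3 and 17.5 CPM in parental cells, 24.2, 28.2 and 23.5 in clone 37 and 11.4, 11.6 and 10.4 in the clone 15 libraries, with log2 fold changes of 0.55 (SE 0.10) and -0.63 (SE 0.12).

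Cluster 5 (5 genes, chr19:34677639-34964049) had 3 genes called higher in clone 37, while in clone 15 the calls were 2 higher and 3 lower. The pair that rose in both clones, ZNF30 and ZNF792, lie next to each other within it. ZNF30 (chr19:34926903-34945170) had 7.77, 6.40 and 6.66 CPM in parental cells, 11.7, 9.39 and 10.4 in clone 37 and 9.35, 10.4 and 12.4 in the clone 15 libraries, and log2 fold changes of 0.58 (SE 0.14) and 0.59 (SE 0.15). ZNF792 (chr19:34956354-34964049, reverse strand) had 10.5, 10.2 and 10.6 CPM in parental cells, 16.3, 19.1 and 15.0 in clone 37 and 13.9, 14.7 and 12.7 in the clone 15 libraries. Both clones lay above every parental library, with log2 fold changes of 0.65 (SE 0.12, edgeR adjusted p 0.000129) and 0.37 (SE 0.13, adjusted p 0.0172). The second call was lost on counts of both strands (adjusted p 0.052), against neighbours (0.138) and without parental replicate 1 (0.0674) or 3 (0.064).

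Cluster 7 changed little as a whole. In clone 37, 4 of 23 tested genes rose and 2 fell (median 0.01), while 1 of 18 other protein-coding genes within its span rose and 11 fell (median -0.37). Clone 15 had 1 higher and 5 lower of 22 (median -0.11). The strict A box pattern was found in 2 of its 24 genes, and in 19 when the box may end in leucine. ZNF428 (chr19:43607219-43619874, reverse strand), a single-finger gene without a KRAB box, fell in clone 37. It had 20.8, 27.6 and 25.1 CPM in parental cells, 13.1, 15.6 and 13.9 in clone 37 and 20.5, 27.6 and 22.4 in the clone 15 libraries, and its log2 fold change was -0.82 in clone 37 (SE 0.12, edgeR adjusted p 1.08e-05) and -0.10 in clone 15 (adjusted p 0.501). ZNF576 (chr19:43596392-43601157) had 9.25, 8.99 and 10.5 CPM in parental cells, 8.77, 9.87 and 8.18 in clone 37 and 13.2, 15.3 and 13.6 in the clone 15 libraries, where it rose by 0.52 (SE 0.13, adjusted p 0.00183). ZNF285 (chr19:44382298-44401608, reverse strand) was lower in both clones, at 2.68, 2.09 and 2.30 CPM in parental cells, 0.822, 1.55 and 1.05 in clone 37 and 1.39, 1.22 and 1.34 in the clone 15 libraries. Its log2 fold changes were -1.07 (adjusted p 0.00592, or 0.0686 against neighbours) and -0.85 (adjusted p 0.0115, or 0.058 without parental replicate 1). ZNF229, its neighbour, had 5, 12 and 5 counts in parental cells and 15, 12 and 18 in the clone 37 libraries. Its log2 fold change of 1.16 (adjusted p 0.0174) missed the threshold by DESeq2 (0.0796) and without parental replicate 1 (0.0611) or 3 (0.0923) or clone 37 replicate 1 (0.0537) or 3 (0.0756).

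Cluster 8 held large losses and large gains of clone 37 side by side. Of 32 tested genes 7 rose and 9 fell (median -0.04), and in clone 15 1 of 31 rose and 12 fell (median -0.21). Over all tested genes, 26.7% rose and 27.3% fell in clone 37, and 25.1% and 26.2% in clone 15. ZNF610 (chr19:52336245-52367778) rose from 0, 0.144 and 0.153 CPM in parental cells to 1.73, 2.42 and 1.62 in clone 37 (log2 fold change 4.02, SE 0.53, edgeR adjusted p 5.14e-06). In clone 15 each library held 1 count of it, and counts pooled per group gave a ratio of 51.6 for clone 37 over clone 15 (95% exact counting interval 16.9 to 257). The next gene on the same strand, ZNF880 (chr19:52369917-52385795), fell from 2.59, 2.30 and 1.38 CPM to 0.274, 0.194 and 0.0810 in clone 37 and had 1.10, 2.44 and 2.14 in the clone 15 libraries. Its log2 fold changes were -3.49 (SE 0.48, adjusted p 1e-05) and -0.21 (adjusted p 0.613). The one after it, ZNF528 (chr19:52397849-52418412), was lower in both clones, at 1.57, 1.65 and 1.99 CPM in parental cells, 0.183, 0 and 0.162 in clone 37 and 0.341, 0.487 and 0.590 in the clone 15 libraries (-3.79, SE 0.52, and -1.96, SE 0.36).

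ZNF525 and ZNF808 were expressed in parental cells and clone 15 and nearly silent in clone 37. ZNF525 (ENSG00000203326, chr19:53365693-53392217, forward strand) had 4.81, 4.39 and 5.05 CPM in parental cells, 0.274, 0.194 and 0.162 in clone 37 and 6.04, 5.12 and 5.63 in the clone 15 libraries. Its log2 fold change was -4.47 in clone 37 (SE 0.34, edgeR adjusted p 8.08e-09), 0.21 in clone 15 (adjusted p 0.33) and -4.71 between the clones (SE 0.32, adjusted p 6.6e-13). ZNF808 (ENSG00000198482, chr19:52527652-52564464, forward strand), a repressor of MER11 elements needed for pancreas development, had 4.35, 2.59 and 3.21 CPM in parental cells, 0.274, 0.290 and 0.405 in clone 37 and 4.59, 2.64 and 2.84 in the clone 15 libraries. Its changes were -3.34 (SE 0.37, adjusted p 7.99e-07) and 0.01 (adjusted p 0.977), and it overlaps ZNF701 on the same strand, where reads common to both are left out. Both windows, chr19:53365455-53365754 and chr19:52527418-52527717 (forward strand, RefSeq, GRCh38.p14), are shown because these genes changed together, and capitals mark the longest run they share, of 23 bases.
ZNF525: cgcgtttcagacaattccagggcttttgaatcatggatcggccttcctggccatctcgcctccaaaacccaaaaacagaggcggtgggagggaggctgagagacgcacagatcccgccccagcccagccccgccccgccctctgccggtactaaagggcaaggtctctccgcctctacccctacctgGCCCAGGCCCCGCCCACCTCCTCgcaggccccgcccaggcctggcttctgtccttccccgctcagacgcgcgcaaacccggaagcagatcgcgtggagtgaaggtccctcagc
ZNF808: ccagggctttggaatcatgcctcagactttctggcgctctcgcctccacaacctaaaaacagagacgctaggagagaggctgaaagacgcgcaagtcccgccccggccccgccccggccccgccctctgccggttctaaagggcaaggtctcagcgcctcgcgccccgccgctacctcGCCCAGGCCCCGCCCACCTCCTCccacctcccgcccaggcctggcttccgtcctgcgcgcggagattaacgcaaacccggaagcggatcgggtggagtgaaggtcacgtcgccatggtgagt
They were identical at 80.0% of 300 positions, against 54.3% to 58.3% between either of them and the 4 windows of cluster 4. The 23-base run occurred in 3 of all 35116 windows, 2 of them these.

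The other named genes of cluster 8 changed in both clones. ZNF347 (chr19:53124072-53159075, reverse strand) had 1.76, 0.935 and 1.15 CPM in parental cells, 7.21, 6.77 and 7.61 in clone 37 and 0.368, 0.365 and 0.482 in the clone 15 libraries. Without overlap between groups, it rose by 2.49 in clone 37 (SE 0.23, edgeR adjusted p 9.24e-08) and fell by 1.68 in clone 15 (SE 0.40, adjusted p 0.00101). ZNF28 (chr19:52797409-52857600, reverse strand) was lower in both, at 16.5, 14.0 and 14.2 CPM in parental cells, 7.58, 8.52 and 8.58 in clone 37 and 5.88, 4.63 and 6.0 in the clone 15 libraries (-0.87, SE 0.12, and -1.46, SE 0.15). The overlapping gene ZNF468 had 9.53, 9.21 and 10.9 CPM in parental cells, 13.7, 14.8 and 13.0 in clone 37 and 6.64, 5.48 and 7.45 in the clone 15 libraries. Its log2 fold changes were 0.46 and -0.63, but 99.2% of its words are shared with other genes and its values are uncertain.

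Cluster 9, at the end of the long arm, had 10 genes higher and 16 lower of 52 tested in clone 37 (median -0.06) and 7 higher and 19 lower of 52 in clone 15 (median -0.20). Clusters 8 and 9 together had 20.2% higher and 29.8% lower in clone 37, near the 26.7% and 27.3% over all tested genes. In clone 15 they had 9.64% and 37.3%, against 25.1% and 26.2%. ZNF544 (chr19:58228594-58277495, forward strand) had 26, 21 and 18 counts in parental cells, 0, 1 and 1 in clone 37 and 1, 0 and 2 in the clone 15 libraries. Pooled, parental cells exceeded clone 37 by a ratio of 28.9 (95% exact counting interval 7.70 to 244) and clone 15 by 46.7 (15.3 to 232). The fitted log2 fold change in clone 15 ran from -6.32 without clone 15 replicate 3 to -4.86 without its replicate 2. On counts of both strands its log2 fold changes were -0.50 (edgeR adjusted p 0.071) and -0.43 (adjusted p 0.104), so both calls rest on the strand-specific counts. ZNF584 (chr19:58401504-58418327) was higher in both clones, at 19.2, 16.9 and 19.7 CPM in parental cells, 24.0, 24.5 and 26 in clone 37 and 26.6, 29.4 and 31.0 in the clone 15 libraries. Its log2 fold changes were 0.40 (SE 0.09, adjusted p 0.00143) and 0.61 (SE 0.10, adjusted p 2.42e-05).

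The highest levels of cluster 9 belonged to ZNF460 and ZNF805, at 37.0 and 18.8 CPM per kb of transcript in parental cells. ZNF460 (chr19:57280051-57293569) had 128, 107 and 137 CPM in parental cells, 102, 111 and 105 in clone 37 and 95.7, 88.1 and 95.4 in the clone 15 libraries. It fell by 0.25 in clone 37, where the groups overlap, and by 0.44 in clone 15, where they do not. The call in clone 37 (edgeR adjusted p 0.00827) was lost against neighbours (-0.05, adjusted p 0.645) and without clone 37 replicate 1 (adjusted p 0.0533). ZNF805 (chr19:57240685-57255135) had 48.8, 42.9 and 43.7 CPM in parental cells, 39.8, 38.3 and 42.1 in clone 37 and 29.8, 31.8 and 30.7 in the clone 15 libraries. It fell by 0.58 in clone 15 (adjusted p 6.29e-06), and its change of -0.19 in clone 37 (adjusted p 0.0405) lost the call under 9 of the other settings, against neighbours with a change of sign (0.01, adjusted p 0.936). A pair of GC-rich genes without a KRAB box rose in clone 15. ZNF628 had 10.6, 9.57 and 12 CPM in parental cells, 10.9, 11.6 and 10.8 in clone 37 and 12.4, 21.2 and 15.8 in the clone 15 libraries (0.58, adjusted p 0.00553, or 0.0655 against neighbours and 0.0569 without parental replicate 2). ZNF579 had 21.0, 21.7 and 23.3 CPM in parental cells, 15.8, 17.6 and 16.4 in clone 37 and 27.9, 36.8 and 25.1 in the clone 15 libraries. It fell by 0.43 in clone 37 (adjusted p 0.000824, or 0.0542 against neighbours) and rose by 0.42 in clone 15 (adjusted p 0.00491, or 0.141 against neighbours). Outside the clusters, ZNF114 (chr19:48270102-48287608) had 3.42, 2.52 and 2.60 CPM in parental cells, 1.00, 1.06 and 0.729 in clone 37 and 2.97, 2.48 and 3.00 in the clone 15 libraries, and fell by 1.63 in clone 37 (SE 0.29, adjusted p 0.000158).

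Among 13 genes whose proteins are known to bind transposable elements, 6 of 11 tested rose (54.5%, against 26.7% of all tested genes) and 1 fell (9.09%, against 27.3%) in clone 37 (median 0.26), none of 9 rose (against 25.1%) and 4 fell (44.4%, against 26.2%) in clone 15 (median -0.23), and 8 of 11 were higher (72.7%, against 28.7%) and 2 lower (18.2%, against 29.0%) in clone 37 against clone 15 (median 0.62). ZNF93 and ZNF257, which passed the filter only through clone 37, are among those that rose, and without them 4 of 9 rose and 1 fell in clone 37 (median 0.16). Between the clones, without them, 6 of 9 were higher and 2 lower in clone 37 (median 0.34). ZNF91, ZNF93, ZNF257, ZNF382 and ZNF468 were among those that rose in clone 37, and ZNF808 was the gene that fell there. The list was drawn up with earlier results of these data known and is not independent evidence of a direction.

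The machinery through which these proteins act was expressed in every library. Of 27 co-repressor and heterochromatin genes, all of them tested, 8 rose and 11 fell in clone 37 (29.6% and 40.7%, against 26.7% and 27.3% of all tested genes; median 0.01), 7 rose and 7 fell in clone 15 (25.9% each, against 25.1% and 26.2%; median -0.02), and 6 were higher and 8 lower in clone 37 against clone 15 (22.2% and 29.6%, against 28.7% and 29.0%). Apart from the share that fell in clone 37, these shares lay near those over all genes. TRIM28, the shared co-repressor, stood at 427, 472 and 464 CPM in parental cells, 383, 375 and 375 in clone 37 and 536, 624 and 556 in the clone 15 libraries. The groups did not overlap, and the log2 fold changes were -0.29 in clone 37 (SE 0.06, edgeR adjusted p 0.000721), 0.30 in clone 15 (SE 0.09, adjusted p 0.00758) and -0.59 between the clones. TRIM28 itself lies on chromosome 19. The de novo DNA methyltransferase DNMT3A fell from 95.8 ± 1.90 CPM to 48.3 ± 0.887 in clone 37, and to 46.6 ± 3.04 (SD, n = 3 each) in clone 15, whereas DNMT3B rose from 45.3 ± 2.67 to 67.0 ± 3.47 and 74.3 ± 0.187 CPM. CBX5, which encodes HP1 alpha, fell from 836 ± 12.1 to 448 ± 20.7 CPM in clone 15, and its change in clone 37 was 0.15 (adjusted p 0.0671).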

How the data were processed

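RNA was depleted of ribosomal RNA and made into directional libraries from 500 ng with 13 cycles of amplification, per the labels' protocols. Reads were checked with FastQC 0.11.9 and mapped with STAR 2.7.10a to hg38, per the submitters' processing notes, and the annotation release is not given in the sources used here. Each library has a deposited table of raw counts by gene identifier, headed by 4 lines of totals. In their layout reads that map to several places or overlap several genes stay out of the counts, so near-identical copies are undercounted. The column of the transcript strand was used, which held 92.6% to 94.0% of stranded gene counts. Those 4 lines were left out of every total and test.

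Of 60683 identifiers 58496 matched GENCODE 29 on GRCh38, which gave symbols, positions and transcripts, and the positions printed span whole genes of that annotation. Genes passing filterByExpr were scaled by TMM factors and tested in edgeR 4.0.16 (robust quasi-likelihood fit) on the 6 libraries of each comparison, with Benjamini-Hochberg adjustment over all tested genes. Calls were made under an adjusted p of 0.05. The size of a log2 fold change divided by the root of its F statistic gave the standard error. CPM used the strand-specific gene total of each library. Summed CPM was compared by exact permutation, two-sided. Where a group had at most 3 counts in all, the ratio of the pooled CPM is given with a 95% exact interval, and against a group at 0 a floor of 3 counts per library was used. The test was checked on simulated counts.

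Promoter windows came from RefSeq (GRCh38.p14) for 216 of the 248 genes. Motifs were sought on both strands, and pairs of windows were aligned globally.

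Named genes are the 6 called genes with the largest increase and the 6 with the largest decrease against parental cells in each clone (4 and 4 between the clones), at a mean of at least 1 CPM in a group and without overlap of groups. Added to these were genes with at most 3 counts in a group and at least 0.5 CPM in another, the 4 called most strongly upward and the 4 downward in both clones, the 4 called in opposite directions with the largest difference, the 5 highest per kb in parental cells, the most changed called gene of each cluster, and genes of both gene lists called in both clones. This gave 38 genes. The members and lists were chosen with earlier results of these data known.

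Alternatives were RLE size factors, DESeq2 1.42.0, no filter, 1 CPM in 3 libraries, counts of both strands, all 9 libraries in a fit, a replicate block, libraries thinned to the smallest, each gene against its 50 nearest other genes, GC and length trends removed, genes with under 10% of shared words, a gap of 0.5 Mb between clusters, and leaving out each replicate. Letting the A box end in leucine was added after the data were seen.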

Additional observations from a re-analysis of the deposited data

Results flagged for a closer look

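Among the named genes, 10 had changes from parental cells called in opposite directions in the 2 clones, and the difference between the clones was tested directly with edgeR. Further zinc finger genes, outside the named ones, also had opposite calls. The log2 fold change of clone 37 against clone 15 was 4.38 for ZNF737 (SE 0.18, adjusted p 1.12e-17), 4.17 for ZNF347 (SE 0.25, adjusted p 5.01e-14), 3.50 for ZNF85 (SE 0.17, adjusted p 4.71e-16) and 3.35 for ZNF681 (SE 0.17, adjusted p 9.52e-16). The others were 2.68 for ZNF91, 2.17 for ZNF793, 1.18 for ZNF382, 1.09 for ZNF468 (99.2% of its words shared), 0.69 for ZNF146 and -0.85 for ZNF579, with adjusted p values from 1.36e-20 to 1.78e-06. In each of the first 4, every clone 37 library lay above every parental library and every clone 15 library below. At most 1.18% of the 75-base words of these 4 occur in another gene. Clone 15 also differs in read length, which cannot be told apart from the clone.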

How the results depend on the processing

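The counts of called zinc finger genes stayed within 1.5 times the reported ones under every setting but 2. Against the 50 nearest other genes, 20 were called lower in clone 37, 4 higher in clone 15 and 9 lower in clone 37 against clone 15. With GC and length trends removed, 36 were called higher in clone 15. The median log2 fold changes became 0.26, -0.40 and 0.63 against those neighbours, and -0.07 in clone 15 with the trends removed. Leaving out each library in turn gave 59 to 71 higher and 28 to 42 lower in clone 37, 12 to 18 higher and 60 to 80 lower in clone 15, and 97 to 110 higher and 25 to 33 lower between the clones. The 12 higher in clone 15 arose without parental replicate 1 and also without replicate 3. Without parental replicate 2 the counts were 69 and 42 in clone 37 and 17 and 80 in clone 15. Without clone 15 replicate 2 they were 18 and 62 in clone 15 and 108 and 33 between the clones. The differences of the summed level kept their sign under every setting run. Leaving out 1 library moved them from 665 to 823 CPM in clone 37, from -450 to -292 in clone 15 and from 1089 to 1134 between the clones. A gap of 0.5 Mb gave 10 clusters in place of 9. Of 1580 alternative values of the named genes 48 lost a call, 6 gained one and 2 reversed. ZNF584 between the clones (reported as lower in clone 37, -0.21) became 0.25 and ZNF805 in clone 37 became 0.0092, both against neighbouring genes. The cause of these changes was not tested.

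The replicate numbers did not pair the samples, since libraries of the same number had deviations correlated at -0.267 to 0.104 over 11097 genes. With a replicate block the counts were 71 higher and 34 lower in clone 37, 16 and 75 in clone 15, and 113 and 31 between the clones. Clone 15 and its read length cannot be told apart. Genes with few counts, such as ZNF98, ZNF208 and ZNF625, are limited by depth.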

Other observations

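Promoter windows of the chromosome 19 zinc finger genes held a median of 20 CG dinucleotides in 300 bases (from 2 to 49 over 216 genes), against 14 over all 35116 windows, of which 96.0% held at least 1. The genes at least 2-fold higher in clone 37 than in parental cells had a median of 19 (19 windows, from 8 to 29) and those at least 2-fold lower 24 (6 windows, from 17 to 31). Those at least 2-fold lower in clone 15 had a median of 16 (11 windows, from 8 to 31). Methylation was not measured in these libraries.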
